A study of Mus musculus with 32 samples.

Results

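The subject of this report is a family of 10 genes of the NF-κB pathway, followed over 16 groups of mouse bone marrow-derived macrophages (BMDMs). They are the 5 NF-κB subunits Nfkb1, Nfkb2, Rel, Rela and Relb, and 5 genes grouped here as inhibitors, Nfkbia, Nfkbib, Nfkbie, Nfkbiz and Tnfaip3. The members were chosen by name: every array probe whose gene name was 1 of the 10 symbols was taken, without regard to its values. Of 24076 genes with a symbol on the array, 16036 passed the filter on dim probes and were tested, and all 10 members were among them, through 15 probes that all passed.

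NF-κB is a family of dimeric transcription factors that are held in the cytoplasm of resting macrophages by IκB proteins. Ligands such as LPS, which engages the receptor TLR4, activate the IKK kinases, the IκB proteins are degraded, and the freed dimers enter the nucleus and induce inflammatory genes. Several subunit and inhibitor genes are themselves induced by NF-κB, so that their transcripts are commonly read as a sign of pathway activity and of its negative feedback.

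The cells were WT or Ifnar1-/-, the latter without a functional chain of the type I interferon receptor. Cells of either genotype were untreated, or received for 6 h LPS or IFNβ, each alone, with the caspase inhibitor zVAD, or with both zVAD and Nec-1, a blocker of RipK1 kinase, while a further group had zVAD alone. LPS or IFNβ together with zVAD is the study's necroptosis stimulus. By the labels the dose was 100 ng/mL for LPS and 1000 U/mL for IFNβ, while other doses stand in the study's methods and legends, so the doses are uncertain. Each of the 16 groups had 2 arrays, 32 in all. No source says whether the 2 arrays of a group came from separate mice or cultures, so p-values measure the spread between these arrays only, and the number of arrays limits the precision of each value. Expression is given as the log2 of the quantile-normalized intensity of a gene's brightest probe, and differences were tested with limma in 1 fit of all arrays, with a gene called changed at an adjusted p under 0.05.

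The arrays lay on 4 slides, each holding the 8 treatments of 1 genotype with 1 replicate number, and a treatment had the same position on every slide. The WT slides were scanned on separate days, and both Ifnar1-/- slides on a further day. Genotype and slide, genotype and scan day, and treatment and position therefore cannot be told apart. The share of probes well above background ran from 54.9% to 78.1% among WT arrays and from 44.5% to 61.6% among Ifnar1-/- arrays. All 8 macrophage markers examined were above background on all 32 arrays. Some markers of other cells were too, with 5 of 6 for neutrophils and progenitors, 2 of 6 for T and NK cells, 2 of 4 for B cells, 1 of 4 for dendritic cells and 3 of 5 for stromal cells, and whether they had a part in the results was not tested. Ifnar1, the targeted gene, was lower on all Ifnar1-/- arrays than on all WT arrays with 2 of its 3 probes (5.82 to 7.35 against 7.88 to 10.23, and 7.29 to 8.73 against 9.94 to 11.88). Its brightest probe overlapped over all arrays, with 11.16 to 12.44 against 9.02 to 14.76, although the untreated groups were apart, at 11.89 and 11.87 against 14.22 and 14.19. No source says which part of the gene is deleted. In bulk RNA, fewer cells of a type and less RNA per cell cannot be told apart.

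The arrays of 1 group did not match each other. The square root of the mean squared SD over all genes was 0.76 for Ifnar1-/- LPS+zVAD+Nec-1, against 0.31 to 0.55 in the other 15 groups. Its replicate 1 was nearest to the Ifnar1-/- LPS arrays (root mean square difference 0.63) and its replicate 2 to the Ifnar1-/- IFNβ+zVAD+Nec-1 arrays (0.40). Tnf, a target of NF-κB, read 15.92 on replicate 1 and 9.99 on replicate 2, where untreated Ifnar1-/- cells read 9.88 and 10.13. Whether a label of these arrays is wrong was not tested, and if it were, the values given for Ifnar1-/- LPS+zVAD+Nec-1 would not be those of that treatment. Counts of members that moved when this pair was left out of the fit are therefore given both ways.

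Promoter sequences from RefSeq (GRCm38.p6, 250 bases before to 50 after a start) were at hand for 7 of the 10 members, in 10 windows. They are shown because NF-κB dimers bind the κB consensus, a motif of the family, and 5 of these 7 genes held it. Each is written 5′ to 3′ on the strand of the gene, and capitals mark the match or the overlapping matches on either strand.
Nfkbia, chr12:55492657-55492686, minus strand: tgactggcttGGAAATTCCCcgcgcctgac
Nfkbie, chr17:45555584-45555613, plus strand: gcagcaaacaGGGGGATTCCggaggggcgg
Nfkb2, chr19:46304688-46304717, plus strand: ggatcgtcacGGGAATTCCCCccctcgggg
Nfkb2, chr19:46304716-46304736, plus strand: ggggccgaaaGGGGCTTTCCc
Rel, chr11:23771042-23771071, minus strand: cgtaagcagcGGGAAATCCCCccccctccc
Tnfaip3, chr10:19015516-19015545, minus strand: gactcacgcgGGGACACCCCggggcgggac
Tnfaip3, chr10:19015411-19015432, minus strand: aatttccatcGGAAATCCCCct

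The matches began 29 bases before the start in Nfkbia, 106 in Nfkbie, 39 and 11 in Nfkb2, 92 in Rel and 125 and 12 in Tnfaip3. In Nfkb2 and Rel a further match, shifted by 1 base, overlapped the first, and 2 windows at other starts of Nfkb2 held matches too. Of the 2 Tnfaip3 windows, 1 held none. The Rela and Nfkbib windows held no match, which says only that these letters are not in that window. The consensus was GGGRNWYYCC, where R is A or G, W is A or T, Y is C or T and N is any base. Over all windows, 7 of the 10 member windows held the motif, against 4.51% of 32851 RefSeq windows of the same length. The 2 windows at other starts of Nfkb2 overlap and share a match, GGGACTTTCC, so the member windows are not independent. The core of the interferon-stimulated response element, GAAANNGAA, searched on both strands, was in 1 of the 10 member windows, that of Nfkbia, and in 8.56% of all windows.

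**Figure D1:**
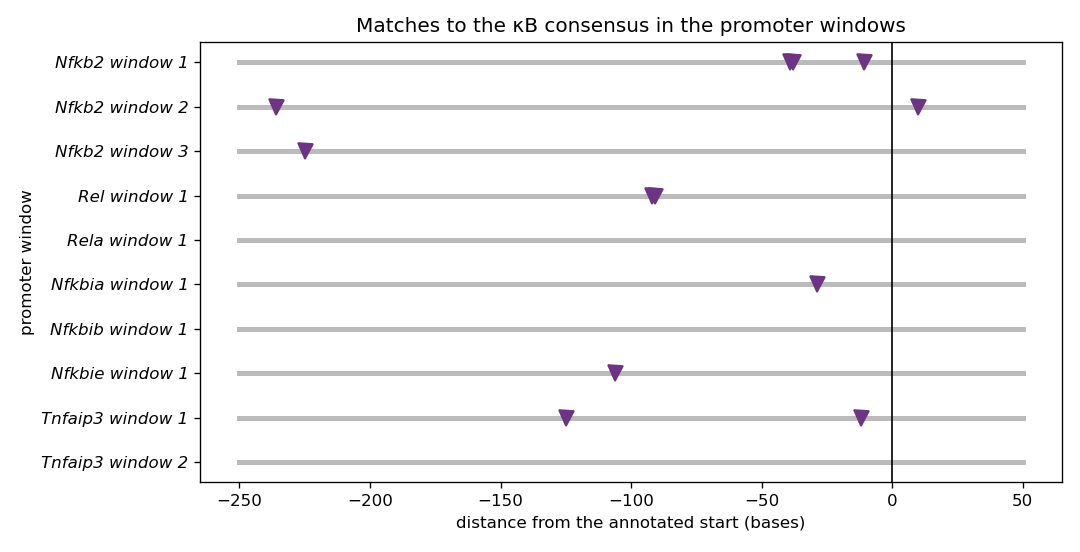
Positions of matches to the κB consensus on either strand (triangles, at the first base of the match) in the 10 promoter windows of 7 member genes, by distance from the annotated start in bases. The Rela, Nfkbib and second Tnfaip3 windows hold none, and the match of Nfkbia begins 29 bases before the start.

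LPS raised most of the family in both genotypes at 6 h. In WT cells 6 of 10 members were called higher and none lower, where 41.2% of all genes tested were called changed, and in Ifnar1-/- cells 8 of 10 were called higher and none lower, where 24.8% were. Without the unmatched pair the count was 8 in both genotypes, with Rel and Nfkbie added in WT cells. The median log2 change over the members was 2.24 in WT cells and 2.78 in Ifnar1-/- cells, against -0.08 and -0.06 over all genes. Tnfaip3 and Nfkbiz had the largest called rises in both genotypes, and Rela, which encodes the transactivating subunit p65, had the smallest change, 0.61 and 0.62.

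Of the subunits, Nfkb1 encodes p105, which is processed to p50. Its probe (chromosome 3, 135254550 to 135254609, mm9) read 10.55 and 10.88 in untreated WT cells and 13.24 and 12.21 with LPS. In Ifnar1-/- cells it read 10.45 and 10.56, and 12.94 and 12.96 with LPS. The LPS arrays were higher in both genotypes without overlap, and the change was 2.01 (SE 0.42, adjusted p = 0.000815 from limma) in WT cells and 2.44 (SE 0.42, adjusted p = 0.000427) in Ifnar1-/- cells.

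Nfkb2 encodes p100, both the precursor of p52 and an IκB-like inhibitor. It is at chromosome 19, 46386146 to 46386285. It read 12.13 and 12.12 in untreated WT cells and 14.75 and 14.45 with LPS, a rise of 2.47 (SE 0.62, adjusted p = 0.0035 from limma). Ifnar1-/- cells gave 11.45 and 11.70, and 15.16 and 15.26 with LPS, a rise of 3.63 (SE 0.62, adjusted p = 0.000401). The LPS arrays lay above the untreated ones in both genotypes, and the 2 Ifnar1-/- LPS arrays were the highest of the 32.

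Rel encodes c-Rel, a transactivating subunit of haematopoietic cells (chromosome 11, 23641729 to 23641743). It read 5.77 and 5.75 in untreated WT cells and 9.05 and 8.18 with LPS. The LPS arrays were apart from the untreated ones, but the change of 2.85 missed the threshold (SE 1.18, adjusted p = 0.0609 from limma). The Ifnar1-/- arrays read 5.87 and 4.18, and 7.94 and 7.05 with LPS (change 2.47, adjusted p = 0.145). Of the 2 untreated Ifnar1-/- arrays, 1 was above background, and replicate 2 was not well above background there or in any other Ifnar1-/- group except LPS and LPS+zVAD, so Rel differences in this genotype rest partly on unmeasured values. With the replicate number, that is the slide, as a block, Rel was called in WT (adjusted p = 0.000372) and in Ifnar1-/- cells (adjusted p = 0.00216).

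Rela (chromosome 19, 5648070 to 5648129) read 15.66 and 15.73 in untreated WT cells and 16.23 and 16.37 with LPS. In Ifnar1-/- cells it read 15.24 and 15.28, and 15.92 and 15.83 with LPS. The groups did not overlap, yet the changes of 0.61 (95% interval -0.09 to 1.30) and 0.62 (-0.08 to 1.31) were not called, with adjusted p = 0.163 and 0.208 from limma. With the slide as a block both were, at adjusted p = 0.0391 and 0.0487.

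Relb encodes the partner of p52 in the non-canonical branch of the pathway (chromosome 7, 20191722 to 20191781). It read 13.04 on both untreated WT arrays and 14.13 and 14.15 with LPS, a change of 1.1 that was not called (SE 0.53, adjusted p = 0.106 from limma). Ifnar1-/- cells had 11.69 and 12.23, and 13.91 and 14.00 with LPS, and this rise of 1.99 was called (adjusted p = 0.00887). The LPS levels of the genotypes lay close together, and the untreated level was lower in Ifnar1-/- cells. A further Relb probe gave like changes (1.34 and 2.15), while the remaining probe moved by -0.28 and -0.36.

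**Figure D2:**
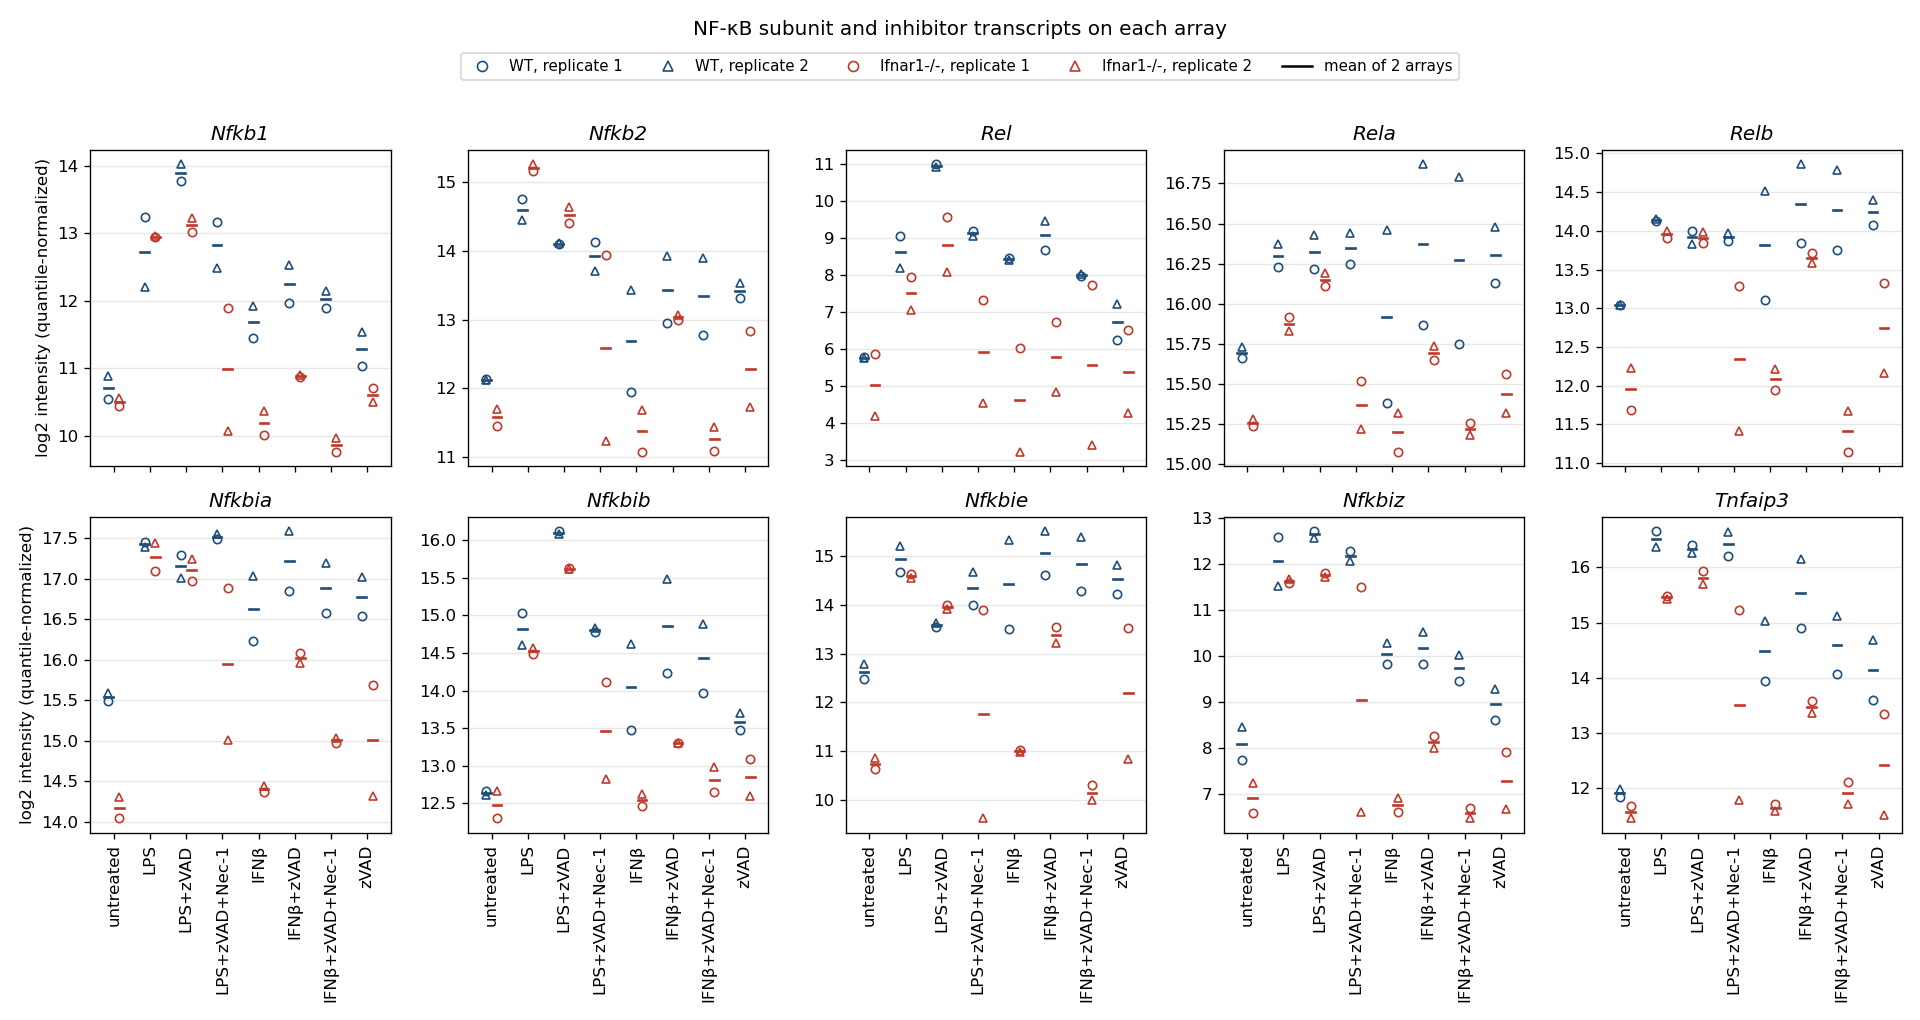
Log2 quantile-normalized intensity (vertical axis, a scale of its own for each gene) of the 10 transcripts on all 32 arrays, by treatment, with WT in blue, Ifnar1-/- in red, circles for replicate 1, triangles for replicate 2 and a line at the mean of 2 arrays. In the Ifnar1-/- LPS+zVAD+Nec-1 group the 2 arrays are far apart, as for Nfkbiz at 11.49 and 6.60.

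Among the inhibitors, Nfkbia encodes IκBα, the rapidly resynthesized inhibitor that ends a pulse of NF-κB activity (chromosome 12, 56590945 to 56591440). It read 15.49 and 15.59 in untreated WT cells and 17.46 and 17.40 with LPS. Its level was lower in untreated Ifnar1-/- cells, at 14.04 and 14.31, and was 17.10 and 17.44 with LPS. The LPS levels of the genotypes overlapped, whereas the untreated levels did not, and the rise was 1.90 (SE 0.46, adjusted p = 0.00285 from limma) in WT and 3.10 (SE 0.46, adjusted p = 0.00015) in Ifnar1-/- cells.

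Nfkbib encodes IκBβ (chromosome 7, 29544160 to 29544219). It read 12.66 and 12.61 in untreated WT cells and 15.03 and 14.60 with LPS, and 12.30 and 12.66 in untreated Ifnar1-/- cells and 14.49 and 14.56 with LPS. The rises of 2.18 (adjusted p = 0.000371 from limma) and 2.05 (adjusted p = 0.00153) were the most alike of the called members in the 2 genotypes. Its other 2 probes rose by 2.88 and 2.53 in WT cells and by 2.35 and 2.32 in Ifnar1-/- cells.

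Nfkbie encodes IκBε (chromosome 17, 45700000 to 45700059). It read 12.48 and 12.78 in untreated WT cells and 14.67 and 15.19 with LPS, and the change of 2.30 was not called (SE 0.93, adjusted p = 0.0562 from limma; with the slide as a block, 0.0208). Untreated Ifnar1-/- cells read 10.64 and 10.86 and those with LPS 14.62 and 14.54, a rise of 3.83 (adjusted p = 0.00546). No untreated array reached any LPS array of its genotype.

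Nfkbiz encodes IκBζ, an atypical nuclear IκB protein that is needed for a set of secondary response genes such as Il6 (chromosome 16, 55817859 to 55817918). It read 7.73 and 8.45 in untreated WT cells and 12.59 and 11.52 with LPS. The Ifnar1-/- values were 6.59 and 7.25, and 11.59 and 11.67 with LPS. It had the largest rise of the family in Ifnar1-/- cells, 4.71 (SE 0.89, adjusted p = 0.000883 from limma), and the second largest in WT cells, 3.97 (adjusted p = 0.0015).

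Tnfaip3 encodes A20, a ubiquitin-editing enzyme that restrains signalling upstream of the IKK complex (chromosome 10, 18720776 to 18720835). It read 11.83 and 11.98 in untreated WT cells and 16.66 and 16.38 with LPS, and 11.66 and 11.44 in untreated Ifnar1-/- cells and 15.49 and 15.42 with LPS. Its rise of 4.61 was the largest of the family in WT cells (SE 0.76, adjusted p = 8.98e-05 from limma), a 24.5-fold change, and in Ifnar1-/- cells it rose by 3.91 (adjusted p = 0.00103), 15-fold.

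A difference between the genotypes in the response to LPS was not called for any member. Limma called 0 of 10 members for the difference of the 2 responses (none had an unadjusted p under 0.05), where 6.64% of all genes were called, and the count was 0 or 1 under every alternative tried. The estimated difference was above 0 for 7 members and below it for Tnfaip3 (-0.71), Rel (-0.38) and Nfkbib (-0.14). The widest differences were 1.53 for Nfkbie (95% interval -1.24 to 4.30), 1.20 for Nfkbia (-0.17 to 2.57) and 1.16 for Nfkb2 (-0.68 to 3.0), all larger in Ifnar1-/- cells. These intervals span more than 2 log2, so the test does not show that the responses were alike. In untreated cells 0 of 10 members were called between genotypes, where 8.73% of genes were. An unadjusted p under 0.05 was found for 3364 of 16036 genes and for 1 member. It was Nfkbia, lower by 1.36 in Ifnar1-/- cells (SE 0.46, adjusted p = 0.0785 from limma); it was called when the unmatched pair was left out. All 10 members had a lower mean in untreated Ifnar1-/- cells, with a median of -0.64 against 0 over all genes. For 7 of them the arrays did not overlap, but the share of all genes without overlap was not counted. A further Nfkbib probe gave 0.34. The summed level of the stromal markers was higher in untreated Ifnar1-/- cells (11.40 to 12.62 against 9.18 to 10.15, with 2 of 4 tested called higher). That of the B cell markers was higher too (10.33 to 10.48 against 9.87 to 10.31). The sums were lower for dendritic cells (15.27 to 16.03 against 16.11 to 16.37) and for T and NK cells (12.31 to 13.18 against 13.30 to 13.38). The macrophage sum was also lower (19.73 to 19.78 against 19.83 to 19.86). The neutrophil and progenitor sums overlapped (13.73 to 14.28 against 13.26 to 14.25, with a median change of 1.63). The part of all these markers in the result was not tested. These differences between untreated genotypes cannot be told apart from the slides or the scan days.

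IFNβ raised 2 of 10 members in WT cells, where 35.3% of all genes were called, 13.7% higher and 21.6% lower. It raised none in Ifnar1-/- cells, where limma called no gene at all (0%, with 253 genes and 0 members at an unadjusted p under 0.05). Tnfaip3 read 13.93 and 15.02 with IFNβ in WT cells and rose by 2.57 (SE 0.76, adjusted p = 0.0126). Nfkbib read 13.48 and 14.62 and rose by 1.41 (SE 0.42, adjusted p = 0.0127). The IFNβ arrays of both genes lay above the untreated ones without overlap, and their replicates differed by more than 1 log2. Without either untreated array, or without IFNβ replicate 2, neither was called. Rel, at 8.44 and 8.40, stood 2.65 above the untreated arrays but was not called (SE 1.18, adjusted p = 0.0903 from limma). With the slide as a block Rel was called (adjusted p = 0.000823), and in both fits the spread comes from all groups.

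The other members of WT cells treated with IFNβ lay between. The changes were 1.96 for Nfkbiz, 1.78 for Nfkbie, 1.09 for Nfkbia, 0.97 for Nfkb1, 0.77 for Relb, 0.56 for Nfkb2 and 0.22 for Rela, with adjusted p from 0.076 to 0.667. WT IFNβ replicate 2 was above replicate 1 for all members except Rel, and Nfkb2 and Rela overlapped with the untreated arrays. Without the unmatched pair 6 members were called (Nfkb1, Nfkbia, Nfkbib, Nfkbie, Nfkbiz and Tnfaip3), and with the slide as a block 4 (Rel, Nfkbia, Nfkbib and Tnfaip3).

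IFNβ left the members of Ifnar1-/- cells near their untreated levels. Tnfaip3 read 11.70 and 11.57 with IFNβ against 11.66 and 11.44 untreated, and Nfkbia 14.37 and 14.44 against 14.04 and 14.31. The log2 changes ran from -0.40 for Rel to 0.25 for Nfkbie. The difference of the IFNβ responses between genotypes was not called for any member, where 18.8% of genes were called. It had an unadjusted p under 0.05 for 5029 of 16036 genes and for 3 members. It was -2.48 for Tnfaip3 (95% interval -4.73 to -0.24, adjusted p = 0.118 from limma), -1.35 for Nfkbib (-2.59 to -0.11, adjusted p = 0.123) and -1.28 for Nfkb1 (-2.53 to -0.03, adjusted p = 0.147). The other Nfkb1 probe gave -0.74, with a change of 0.36 in Ifnar1-/- cells where the probe used gave -0.31. Without the unmatched pair Nfkb1, Nfkbiz and Tnfaip3 were called, and with the slide as a block Rel and Tnfaip3 (adjusted p = 0.0069 and 0.0403).

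**Figure D3:**
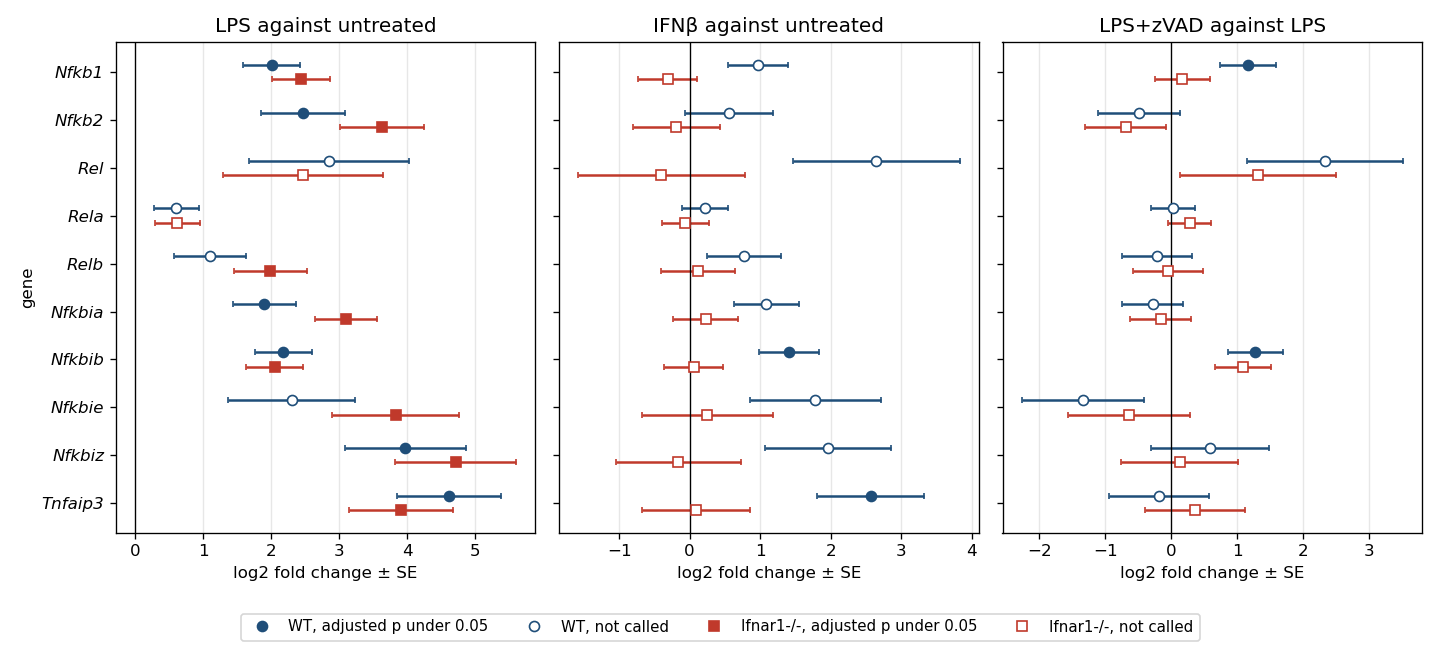
Log2 fold change with its standard error of the 10 transcripts for LPS and IFNβ against untreated and for LPS+zVAD against LPS, with WT as blue circles, Ifnar1-/- as red squares and filled symbols for an adjusted p under 0.05 from limma. IFNβ called 2 members in WT cells and none in Ifnar1-/- cells, and LPS called 6 and 8.

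zVAD alone called no member in either genotype. In WT cells, where 0.00624% of genes (1 gene) were called and 901 genes had an unadjusted p under 0.05, 4 of 10 members had one too. The median change of the members was 1.08, against -0.03 over all genes. All 10 lay above the untreated arrays without overlap, but the share of all genes that did so was not counted. Tnfaip3 read 13.59 and 14.69 with zVAD against 11.83 and 11.98, a change of 2.24 (SE 0.76, adjusted p = 0.634 from limma). Nfkbia read 16.54 and 17.02 against 15.49 and 15.59, a change of 1.24 (adjusted p = 0.705).

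The 2 zVAD arrays of Ifnar1-/- cells gave different values, in a comparison where limma called 0% of genes (61 genes and 0 members at an unadjusted p under 0.05). On replicate 1 all 10 members were above the untreated array of the same slide, with a median of 1.35, whereas on replicate 2 the median was 0.00 and 5 of 10 were above. Nfkbie read 13.53 on replicate 1 and 10.85 on replicate 2, against 10.64 and 10.86 untreated, and Tnfaip3 read 13.33 and 11.51, against 11.66 and 11.44. Tnf went with them, at 12.84 and 10.13. The part of a difference in treatment or handling between these arrays was not tested.

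Against untreated cells, LPS+zVAD called 7 of 10 members higher in WT cells, where 50.9% of genes were called, and 9 of 10 in Ifnar1-/- cells, where 28.2% were. The untreated arrays are the same as in the LPS comparison, so these counts are not independent of it. In WT cells Rel rose most, from 5.77 and 5.75 to 10.99 and 10.91, a change of 5.19 or 36.5-fold (SE 1.18, adjusted p = 0.0011 from limma). It was followed by Nfkbiz (4.56, adjusted p = 0.000289), Tnfaip3 (4.44, adjusted p = 7.2e-05), Nfkbib (3.47, adjusted p = 1.5e-06) and Nfkb1 (3.18, adjusted p = 4.33e-06). Relb, Rela and Nfkbie were not called, with changes of 0.87, 0.63 and 0.96 (Rela was with the slide as a block, adjusted p = 0.0273). Rela alone was not called in Ifnar1-/- cells (0.89, adjusted p = 0.0523; with the slide as a block, 0.00567). For the difference of the responses between genotypes 0 members were called (none at an unadjusted p under 0.05), where 16.1% of genes were, and the widest difference was 2.23 for Nfkbie (95% interval -0.54 to 5.00).

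Directly against LPS, in WT cells limma called Nfkb1 and Nfkbib higher with LPS+zVAD. These were 2 of 10 where 34.6% of all genes were called, 12.9% higher and 21.8% lower. Nfkbib read 16.12 and 16.08 with LPS+zVAD against 15.03 and 14.60 with LPS, a rise of 1.28 (SE 0.42, adjusted p = 0.0223), and its other 2 probes rose by 0.88 and 1.51. Nfkb1 read 13.77 and 14.02 against 13.24 and 12.21, a rise of 1.17 (SE 0.42, adjusted p = 0.037), and its other probe gave 0.83. The arrays did not overlap for either gene, but neither was called without LPS replicate 2 or without either LPS+zVAD array, and 1 of 10 members was called without the filter on dim probes, with the mean of a gene's probes or in a fit of the 2 groups alone. Rel, at 10.99 and 10.91 against 9.05 and 8.18, differed by 2.34 without overlap and missed the threshold (SE 1.18, adjusted p = 0.14), but was called with the slide as a block (adjusted p = 0.00225).

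The other inhibitors were not called in WT cells, and no test compared them with Nfkbib. Nfkbie read 13.55 and 13.63 with LPS+zVAD against 14.67 and 15.19 with LPS, a difference of -1.34 without overlap that was not called (SE 0.93, adjusted p = 0.307 from limma). Nfkbia (-0.28), Nfkb2 (-0.49), Relb (-0.22) and Tnfaip3 (-0.18) had values below 0 and Rela (0.03) and Nfkbiz (0.59) above it, none of them called. With arrays aligned at their 75th percentile, without quantile normalization, Nfkbia and Tnfaip3 changed sign here, to 0.10 and 0.24.

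No member was called for LPS+zVAD against LPS in Ifnar1-/- cells, where 8.25% of genes were. An unadjusted p under 0.05 was found for 3489 of 16036 genes and for 1 member. It was Nfkbib, at 15.63 and 15.61 against 14.49 and 14.56, a difference of 1.09 without overlap (SE 0.42, adjusted p = 0.12 from limma). Nfkb1 read 13.01 and 13.22 against 12.94 and 12.96, a difference of 0.17 (95% interval -0.71 to 1.05), and its other probe gave 0.44. Nfkbie differed by -0.64 and Rel by 1.32.

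With IFNβ+zVAD against IFNβ no member was called in either genotype. In WT cells, where 0% of genes were called (637 genes and 0 members at an unadjusted p under 0.05), the changes ran from 0.12 for Nfkbiz to 1.06 for Tnfaip3. In Ifnar1-/- cells 0.00624% of genes (1 gene) were called, and 370 of 16036 genes, 5 members among them, had an unadjusted p under 0.05. Of the members, 9 of 10 lay above the IFNβ arrays without overlap, Rel being the exception. The share of all genes without overlap was not counted. Nfkbie read 13.55 and 13.22 with IFNβ+zVAD against 11.02 and 10.99 with IFNβ, a difference of 2.38 (SE 0.93, 95% interval 0.42 to 4.34). Nfkbia read 16.08 and 15.96 against 14.37 and 14.44 (1.62, 95% interval 0.65 to 2.59), and Relb 13.71 and 13.58 against 11.94 and 12.22 (1.57). None of these genes was called (adjusted p = 0.98 for Nfkbia and 1 for Nfkbie and Relb from limma), although their replicates lay closer together than the groups.

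**Figure D4:**
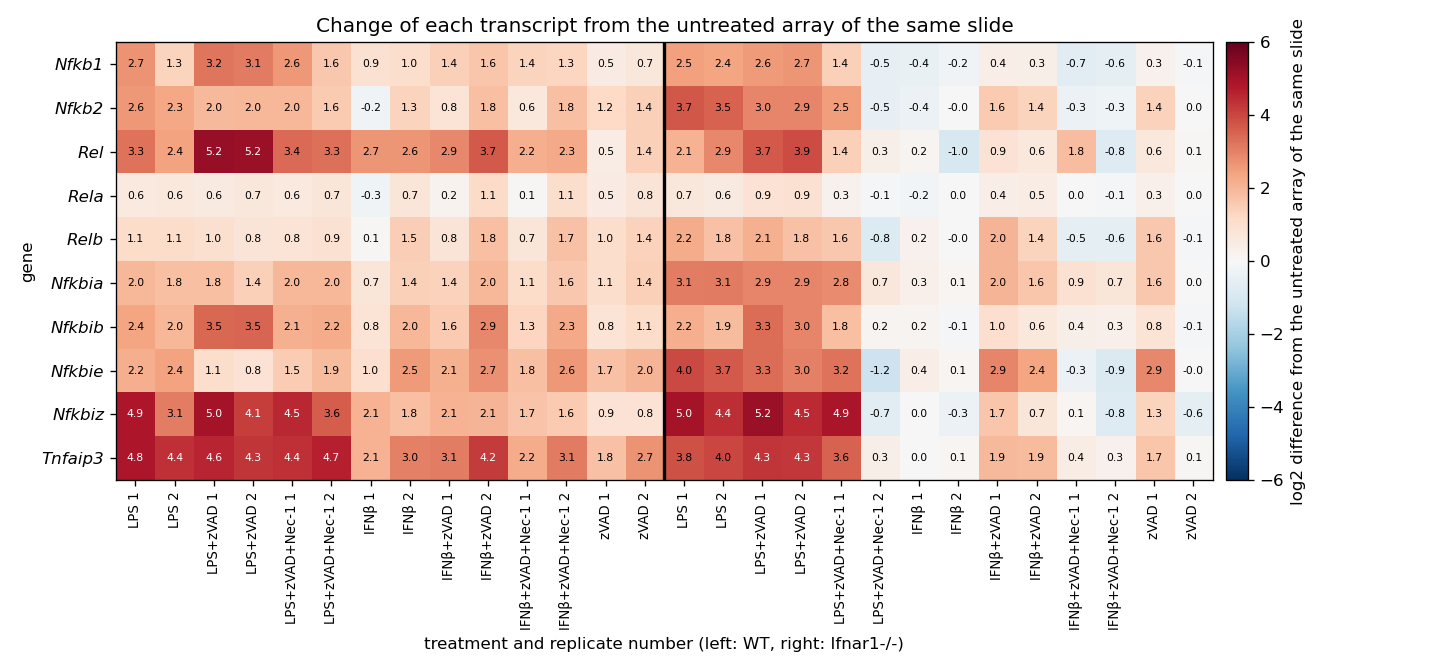
Log2 difference of each array from the untreated array of the same slide (colour and printed value), for the 10 transcripts in rows and 28 treated arrays in columns, with WT left of the line and Ifnar1-/- right of it. All 10 members are above 0 on both arrays of Ifnar1-/- IFNβ+zVAD, with medians of 1.61 and 1.04, and near 0 on those of Ifnar1-/- IFNβ, with medians of 0.10 and -0.01.

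Adding Nec-1 to LPS+zVAD lowered 1 of 10 members in WT cells, where 28.5% of genes were called, 18.7% higher and 9.78% lower. Nfkbib read 14.78 and 14.83 with Nec-1 against 16.12 and 16.08 without, and fell by 1.29 (SE 0.42, adjusted p = 0.0257 from limma), to a mean of 14.81, beside 14.82 with LPS. Nfkb1 read 13.16 and 12.49 against 13.77 and 14.02, a difference of -1.07 that was not called (adjusted p = 0.066). Rel read 9.19 and 9.06 against 10.99 and 10.91, a difference of -1.83 that was not called (adjusted p = 0.285; with the slide as a block, 0.014). Those 3 genes were also the ones furthest above their LPS level with LPS+zVAD in WT cells, and the LPS+zVAD arrays enter both comparisons. Tnfaip3, at 16.21 and 16.65 with Nec-1 and 16.41 and 16.27 without, overlapped, and Nfkbia read 17.49 and 17.55 against 17.30 and 17.01. Aligned at the 75th percentile, Rela, Relb, Nfkbia and Tnfaip3, none of them called, changed sign. Nfkbib was not called without any 1 of the 4 arrays or in a fit of the 2 groups alone, and without the unmatched pair Nfkb1 was called beside it.

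The same comparison in Ifnar1-/- cells rested on the unmatched pair. Limma called 6 of 10 members lower (Nfkb1, Nfkb2, Relb, Nfkbib, Nfkbiz and Tnfaip3), where 18.8% of genes were called, 11.1% higher and 7.65% lower. On replicate 1 the members were raised above untreated by a median of 2.15, and on replicate 2 by -0.27. Nfkbiz, for example, read 11.49 and 6.60 with Nec-1 against 11.80 and 11.72 without, and Nfkbie 13.88 and 9.63 against 13.99 and 13.90. Without replicate 2 the count was 2 (Nfkb1 and Nfkbib), without replicate 1 it was 9, with the slide as a block 10, and in a fit of the 2 groups alone 0. Nfkb1 read 11.90 and 10.07 against 13.01 and 13.22, and Nfkbib 14.11 and 12.82 against 15.63 and 15.61. Both arrays with Nec-1 lay below both arrays without it for all 10 members, by a small margin on replicate 1 for some, such as Nfkbia at 16.89 against 16.97. The share of all genes that did so was not counted.

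**Figure D5:**
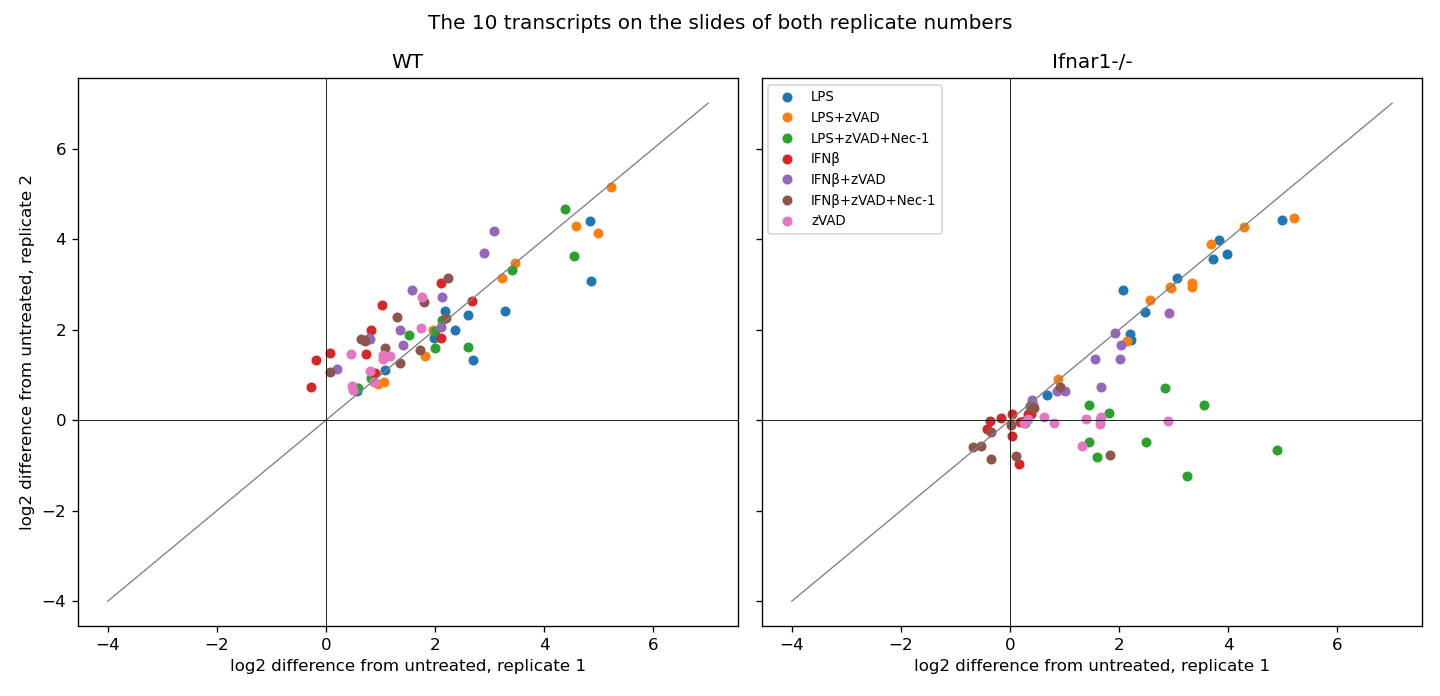
Log2 difference from the untreated array of the same slide on replicate 1 (horizontal axis) and replicate 2 (vertical axis) for the 10 transcripts in 7 treatments, in WT (left) and Ifnar1-/- cells (right), with the line of equal values in grey. The Ifnar1-/- LPS+zVAD+Nec-1 and zVAD points lie below the line, with medians of 2.15 and -0.27, and of 1.35 and 0.00.

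Adding Nec-1 to IFNβ+zVAD gave values below 0 for all 10 members in WT cells, where 0 members and 0% of genes were called by limma (613 genes and 0 members at an unadjusted p under 0.05) and the median change of the members was -0.28. Rel read 7.97 and 8.02 with Nec-1 against 8.67 and 9.46 without, a difference of -1.07 without overlap (95% interval -3.54 to 1.40), and Tnfaip3 differed by -0.94 with overlap. In Ifnar1-/- cells 1 of 10 was called, where 1.58% of genes were. Relb read 11.15 and 11.67 with Nec-1 against 13.71 and 13.58 without, and fell by 2.24 (SE 0.53, adjusted p = 0.0322). Its other probes gave -2.02 and 0.11, and it was not called without any 1 of the 4 arrays, with arrays aligned at their 75th percentile, with normexp, with the mean of a gene's probes or in a fit of the 2 groups alone. Nfkbie, at 10.31 and 10.00 against 13.55 and 13.22, differed by -3.23 (SE 0.93, adjusted p = 0.112; with the slide as a block, 0.0269), and Nfkb2, at 11.09 and 11.44 against 13.00 and 13.06, by -1.76 (adjusted p = 0.239). All members but Rel were lower with Nec-1 without overlap, but the share of all genes without overlap was not counted. An unadjusted p under 0.05 was found for 1593 of 16036 genes and for 5 members. Without the unmatched pair Nfkb2, Relb, Nfkbie and Nfkbiz were called.

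Over the 8 treatments of a genotype, the members fell into different orders. In WT cells the untreated group had the lowest mean for all 10. LPS+zVAD had the highest mean for Nfkb1, Nfkbib, Nfkbiz and Rel, and lay apart from every other group for Nfkb1, Nfkbib and Rel. For Nfkbiz it overlapped with LPS, where an LPS array at 12.59 lay above an LPS+zVAD array at 12.57. For Nfkb1 the next groups, LPS+zVAD+Nec-1 (12.83) and LPS (12.72), overlapped. LPS had the highest mean for Nfkb2 and Tnfaip3, LPS+zVAD+Nec-1 for Nfkbia, and IFNβ+zVAD for Rela, Relb and Nfkbie. Of these genes only Nfkb2 had a leading group apart from all others. For Nfkbia the leading group (17.49 to 17.55) lay within the range of IFNβ+zVAD (16.85 to 17.59). For Rela the 7 treated means lay between 15.92 and 16.37.

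For all 10 members the 2 highest means among Ifnar1-/- groups were those of LPS and LPS+zVAD, with LPS+zVAD first for Nfkb1, Nfkbib, Nfkbiz, Rel, Rela and Tnfaip3 and LPS first for Nfkb2, Nfkbia, Nfkbie and Relb. The 2 groups overlapped for Nfkbia and Relb. Untreated, IFNβ or IFNβ+zVAD+Nec-1 was last for each member. IFNβ+zVAD came next, or after LPS+zVAD+Nec-1, for all 10, with Nfkbie at 13.39 against 10.75 in untreated cells.

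Across the 16 group means each member had a close partner within the family. Pearson's r was 0.99 for Relb and Nfkbie, 0.98 for Nfkb1 and Nfkbiz, 0.97 for Tnfaip3 and Nfkbiz, 0.96 for Rel and Nfkbib and for Nfkbia and Tnfaip3, 0.94 for Rela and Relb and 0.91 for Nfkb2 and Nfkbiz. The lowest was 0.72, between Nfkbib and Nfkbie. Among all other genes the nearest patterns were those of Rnf24 for Nfkb1 (0.98), Ehd1 for Nfkb2 (0.97), Sap30 for Rel (0.98), Dnajb5 for Rela (0.96) and Relb (0.95), Acod1 for Nfkbia (0.99), Ndel1 for Nfkbib (0.98), Zfp263 for Nfkbie (0.95), Sdc4 for Nfkbiz (0.98) and Ptgs2 for Tnfaip3 (0.98). These are descriptions of 16 points that share slides, arrays and 2 genotypes, and the nearest gene was picked from 16036.

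Other genes of the pathway were listed by role. For LPS, 16.3% of all genes were called higher and 24.9% lower in WT cells, and 10.9% and 13.9% in Ifnar1-/- cells. Of 25 measured NF-κB target genes, 23 were called higher and 1 lower in WT cells with LPS, and 21 and 1 in Ifnar1-/- cells. In WT cells with IFNβ 15 of the 25 were higher and none lower, where 13.7% of all genes were higher and 21.6% lower, and in Ifnar1-/- cells none was called. Il6, an acute-phase cytokine, had a mean of 16.31 with LPS in WT cells, and of 17.37 in Ifnar1-/- cells, where untreated arrays were not well above background and the rise was at least 9370-fold (adjusted p = 1.37e-05 from limma). Such a bound sets the mean of the bright group against the lowest signal well above background on the dim arrays. Il1a, the cytokine interleukin 1α, rose at least 1780-fold in Ifnar1-/- cells (adjusted p = 3.99e-05). In WT cells 1 of the 2 untreated arrays had measured Il6 and Il1a. Ptgs2, the prostaglandin synthase COX-2, rose by 11.23 in WT cells (adjusted p = 7.71e-06).

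Of 14 IKK and upstream kinases and their adaptors, 8 were called higher and 2 lower in WT cells with LPS, and 8 and 0 in Ifnar1-/- cells. Tank, an adaptor of the kinase TBK1, rose by 2.59 in WT and by 2.14 in Ifnar1-/- cells (adjusted p = 5.17e-05 and 0.000794). Azi2, another TBK1 adaptor, rose by 2.30 and 1.07, and Ikbke, the kinase IKKε, by 2.13 and 2.44. Of 25 ubiquitin ligases, adaptors and deubiquitinases, 11 were called higher and 2 lower in WT cells and 10 and 1 in Ifnar1-/- cells. Traf1, an adaptor of TNF receptors, rose by 4.85 and 6.02, Tnip3, a partner of A20, by 3.85 and 2.15, and Usp18, an interferon-induced isopeptidase, by 4.18 and 1.1. Of the 2 other IκB proteins, Bcl3, which binds p50 and p52 dimers in the nucleus, was called in both genotypes, with 1.92 and 2.10, and Nfkbid was not (0.35 and 0.55). The medians of these 3 lists in WT cells were 1.04, 0.64 and 1.14, beside -0.08 over all genes.

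With LPS+zVAD against LPS in WT cells, 6 of the 14 kinases and adaptors were called lower and none higher, 8 of the 25 ubiquitin genes lower and 5 higher, and 4 of the 25 targets higher and 1 lower, beside 12.9% of all genes higher and 21.8% lower. Of the named genes Ikbke, Azi2, Tnip3 and Bcl3 were called, with means of 12.97, 12.30, 15.40 and 15.93 with LPS, all lower with LPS+zVAD, at 10.26, 11.31, 13.90 and 14.46. Nfkbid, which was chosen here after its value was seen, rose by 1.99 in the same comparison (adjusted p = 5.44e-05 from limma). The same comparison in Ifnar1-/- cells called 1 of the 14 kinases and adaptors lower, 1 ubiquitin gene in each direction, 3 of the 25 targets higher and Nfkbid higher, by 1.26 (adjusted p = 0.0132 from limma), where 4.58% of all genes were higher and 3.67% lower.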

How the data were processed

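RNA of 32 BMDM samples was hybridized to 1-colour Agilent mouse arrays. Per the file headers, the deposited intensity values are processed signals of Feature Extraction 11.5.1.1, background-subtracted and detrended within each array, with very dim spots set to a surrogate value that compresses low differences. Probe coordinates are on mm9. The authors also deposited a log2 table, background-subtracted and quantile-normalized, which served as an alternative only.

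Here spots with an outlier flag were dropped, spots of a probe were averaged, and log2 intensities were quantile-normalized. Probes well above background on at least 50% of arrays were kept, and the brightest kept probe stood for a gene. Limma 3.58.1 in R 4.3.3 fitted 16 group means with 16 residual degrees of freedom and Benjamini-Hochberg adjustment over 16036 genes. The fit was tested on simulated data. No spot of a member was saturated. No count of reads exists, so precision rests on the number of arrays.

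Groups came from the sample labels. Same-numbered arrays of a genotype lay on 1 slide and deviated together in 28 of 28 pairs of groups in each genotype (r from 0.32 to 0.67 in WT and 0.17 to 0.57 in Ifnar1-/- cells), so the number pairs the samples by slide. The fit without this block is the main one, since the methods name no block. Besides, 11 other settings were tried, and 1 more that was chosen after the data were seen, and each array was left out in turn. All members, and of 4 other pathway lists up to 3 called genes with the largest change in WT cells with LPS, were named by rule. The members and lists were chosen with earlier results of these data known. Promoter windows were RefSeq sequences (GRCm38.p6) and were not mapped to probe coordinates.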

Additional observations from a re-analysis of the deposited data

Results flagged for a closer look

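All members were searched by sign in the comparisons whose difference between genotypes was not tested. For 4 members both WT arrays moved one way and both Ifnar1-/- arrays the other, each against the array of the same slide. With so few arrays such signs can arise by chance, and the share of all genes showing them was not counted. For LPS+zVAD against LPS, Tnfaip3 moved by -0.25 and -0.11 in WT cells and by 0.44 and 0.27 in Ifnar1-/- cells, a difference of 0.54. With arrays aligned at their 75th percentile the WT change of Tnfaip3 was 0.24, so the opposite direction was lost. The other results concern the addition of Nec-1 to LPS+zVAD. Rela moved by 0.03 and 0.01 in WT cells and by -0.59 and -0.97 in Ifnar1-/- cells, a difference of -0.80. The WT groups compared overlapped for Rela, as they did for Tnfaip3 above. Nfkbia moved by 0.20 and 0.55 against -0.08 and -2.24, a difference of -1.53, and Nfkbie by 0.44 and 1.04 against -0.11 and -4.27, a difference of -2.93. With the 75th percentile the WT changes of Rela and Nfkbia were -0.47 and -0.01, so these were no longer opposite either. These 3 rest on the pair of unmatched arrays.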

How the results depend on the processing

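Counts are of members called among 10, and the cause of each move was not tested. Of 2338 member values under the alternatives that kept all replicates or left out the unmatched pair, 2183 kept their side of the threshold, 24 lost the call and 131 gained one. A sign changed in 21 of these values, none of them called. The authors' table gave 4 for IFNβ in WT cells and 1 between untreated genotypes. Both the shift to the 75th percentile and normexp gave 2 for Nec-1 added to LPS+zVAD in WT cells and 0 for Nec-1 added to IFNβ+zVAD in Ifnar1-/- cells. The shift moved the median of all genes by up to 0.28 (LPS+zVAD in WT cells) and the share of higher genes among those called for LPS in WT cells from 39.6% to 50.2%. Without a filter on dim probes, LPS+zVAD against LPS in WT cells gave 1 and Nec-1 added to LPS+zVAD in Ifnar1-/- cells 2. With the mean of a gene's probes, the former gave 1 and Nec-1 added to IFNβ+zVAD in Ifnar1-/- cells 0.

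With the replicate block, which pairs arrays by slide, the counts were 4 for IFNβ in WT cells, 2 and 10 for Nec-1 added to LPS+zVAD in WT and Ifnar1-/- cells, 2 for Nec-1 added to IFNβ+zVAD in Ifnar1-/- cells and 2 for the difference of the IFNβ responses. The slide as a random block gave 4, 3, 10, 2 and 2 for these, and 1 for LPS+zVAD against LPS in Ifnar1-/- cells. No other count moved by over 1.5 times with the replicate block. A fit of only the groups compared gave 1 for LPS+zVAD against LPS in each genotype, 0 for Nec-1 added to LPS+zVAD in each genotype and to IFNβ+zVAD in Ifnar1-/- cells, 1, 3 and 3 for the differences of the LPS, IFNβ and LPS+zVAD responses, and 2 between untreated genotypes.

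Without the unmatched pair the counts were 6 for IFNβ in WT cells, 2 for Nec-1 added to LPS+zVAD in WT cells, 4 for Nec-1 added to IFNβ+zVAD in Ifnar1-/- cells, 3 for the difference of the IFNβ responses and 1 between untreated genotypes. The replicate block without that pair, chosen after seeing the data, gave 10 for LPS, 7 for IFNβ and 1 for zVAD (Tnfaip3) in WT cells, 4 and 1 for LPS+zVAD against LPS in WT and Ifnar1-/- cells, 3 for Nec-1 added to LPS+zVAD in WT cells, 6 for Nec-1 added to IFNβ+zVAD in Ifnar1-/- cells, and 5 and 2 for the differences of the IFNβ and LPS+zVAD responses. With single arrays left out, the range was 0 to 2 for IFNβ in WT cells (0 without either untreated array or IFNβ replicate 2), 0 to 2 for LPS+zVAD against LPS in WT cells (0 without LPS replicate 2 or either LPS+zVAD array), 0 to 0 for Nec-1 added to LPS+zVAD in WT cells, 2 to 9 in Ifnar1-/- cells, 0 to 0 for Nec-1 added to IFNβ+zVAD in Ifnar1-/- cells, and 0 to 1 for the difference of the IFNβ responses. LPS gave 6 to 6 in WT and 7 to 8 in Ifnar1-/- cells. A lone array of a group was assumed to vary like the other groups. Rel, above background on 26 of 32 arrays, was the member limited by signal.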
